A study of Mus musculus with 4 samples.

Results

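The E proteins (Tcf3, Tcf4, Tcf12), the Id proteins (Id1, Id2, Id3), the Zeb factors (Zeb1, Zeb2) and 2 of their partners in dendritic fate (Bcl11a, Cbfa2t3) were followed in lymphoid-primed multipotent progenitors (LMPP) of mouse bone marrow. They were taken by name, as every non-control probe whose RefSeq accession belongs to 1 of these 10 genes, which gave 17 of the 55681 probes on the arrays. All 17 probes were well above background on all 4 arrays, so that all 10 genes were among the 22362 genes and unnamed transcripts tested.

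LMPP are early blood-forming cells that still give rise to lymphoid, myeloid and dendritic cells. All samples came from mice carrying a green fluorescent protein (GFP) knock-in that reports IRF8, a transcription factor of dendritic cells and monocytes. The sort took cells with surface Sca-1, CD117, CD34 and CD135 and without lineage markers, the IL-7 receptor or CD150. The IRF8-GFP positive group held 2 samples and the IRF8-GFP negative group 2 samples, with 1 one-colour array each. The labels mark them exp1 and exp2 in both groups, given here as replicates 1 and 2. They do not say whether a shared number marks shared animals or a shared sort. The labels name no age, sex or zygosity of the mice and do not say whether the 2 samples of a group came from separate animals, so a p-value here reflects no more than the spread of these arrays, possibly technical.

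E proteins are basic helix-loop-helix transcription factors that bind short DNA motifs called E-boxes as dimers with each other or with tissue-restricted partners. Id proteins have the helix-loop-helix but lack the basic region, so they pair with E proteins and keep them off DNA. In dendritic cells the E protein made from Tcf4 is required for the plasmacytoid fate, while Id2 goes with the conventional fate. Zeb1 and Zeb2 are zinc finger factors that bind a subset of E-boxes, mostly as repressors, and Zeb2 is known to lower Id2 in mouse plasmacytoid cells. Bcl11a is a zinc finger factor needed for lymphoid and plasmacytoid development. Cbfa2t3 encodes a corepressor of the ETO family that is recruited by E proteins and their partners.

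On the positive arrays 29631 and 30266 of 59305 non-control spots passed the scanner's test for signal well above background, against 33506 and 33681 on the negative arrays. Irf8, which checks the sort, had a log2 signal of 5.13 and 5.22 on the positive arrays and 1.64 and 1.60 on the negative arrays. All levels here are log2 processed signals relative to the 75th percentile of the array, and all differences are positive minus negative on that scale. Most genes differed. At an adjusted p of 0.05 limma called 13390 of 22362 (59.9%), of which 8611 (38.5%) were higher in positive LMPP and 4779 (21.4%) lower, and the median difference over all genes was 0.16. A count of members called therefore has to be read against these shares. The probes of different genes differ in sequence, so no gene's level is set against another's.

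**Figure D1:**
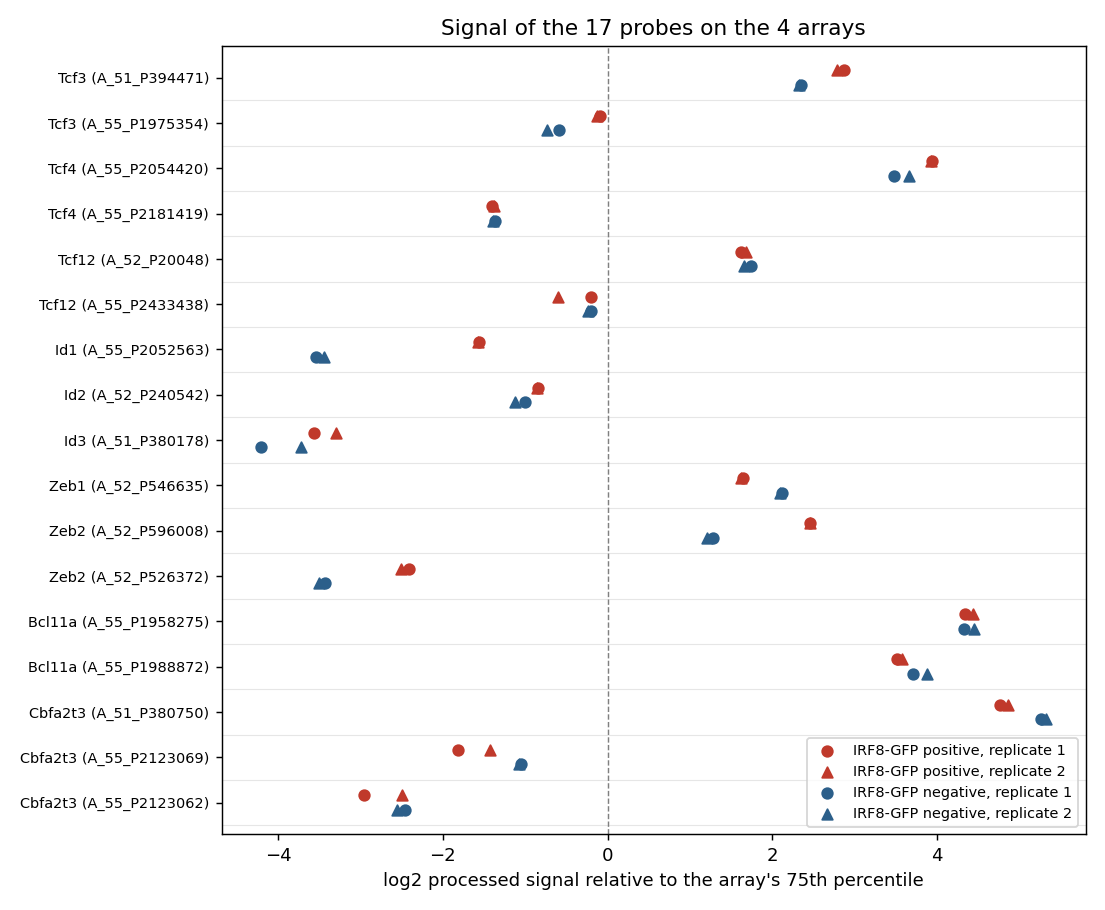
Log2 processed signal, relative to the array's 75th percentile (dashed line), of the 17 probes on the 4 arrays, with the 2 IRF8-GFP positive arrays in red above the 2 negative arrays in blue. Id1 and both probes of Zeb2 show the widest gaps between the groups, and the brighter probes of Tcf12 and Bcl11a show groups that overlap.

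Of the 10 genes, 6 passed the threshold in limma after Benjamini-Hochberg adjustment over all genes. Tcf3, Tcf4, Id1 and Zeb2 rose, Zeb1 and Cbfa2t3 fell, and Tcf12, Id2, Id3 and Bcl11a did not pass. That is 4 of 10 higher and 2 of 10 lower, near the shares of all genes, and the median difference of the 10 was 0.29 against 0.16 for all genes. The groups did not overlap in 8 of 10 members, against 82.2% of all genes. A difference of at least 2-fold with an adjusted p under 0.05 was reached by Id1 and Zeb2, both higher, against 7.93% of all genes (2.33% higher and 5.61% lower).

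Among the E proteins, Tcf3 rose. This gene encodes the E protein of early lymphoid cells, from which alternative splicing makes a pair of DNA-binding forms. Its brighter probe had log2 signals of 2.86 and 2.78 in IRF8-GFP positive LMPP, against 2.35 and 2.33 in negative LMPP. The groups did not overlap, with a difference of 0.48 (SE 0.06, limma adjusted p = 0.00534), or 1.40-fold. The second Tcf3 probe, which was designed on another transcript, gave -0.09 and -0.13 in positive LMPP against -0.59 and -0.74 in negative LMPP. Its difference of 0.55 (SE 0.08) also passed among all probes (limma adjusted p = 0.00802). A single E-box is the median over all start regions searched and does not show binding. The region around the start of Tcf3 is shown with its 1 E-box, CACTTG (GRCm38.p6, chr10:80433586-80433885, minus strand, E-box in capitals, 5′ to 3′).
Tcf3: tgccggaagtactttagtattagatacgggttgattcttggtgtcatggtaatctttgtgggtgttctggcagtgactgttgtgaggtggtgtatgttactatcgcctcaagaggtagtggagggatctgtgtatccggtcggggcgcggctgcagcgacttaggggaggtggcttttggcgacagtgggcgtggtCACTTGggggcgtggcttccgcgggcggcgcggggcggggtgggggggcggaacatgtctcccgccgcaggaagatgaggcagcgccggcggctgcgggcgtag

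Tcf4, the E protein required by plasmacytoid dendritic cells, gave a weaker result that depended on the probe. The brighter probe had 3.94 and 3.93 in positive LMPP against 3.48 and 3.65 in negative LMPP. The groups did not overlap, and the difference was 0.37 (SE 0.08, limma adjusted p = 0.0215), or 1.29-fold. The second, dimmer probe had -1.40 and -1.38 in positive LMPP against -1.37 and -1.39 in negative LMPP. Its groups overlapped, with a difference of -0.0060 and a 95% interval of -0.16 to 0.15. The Tcf4 call was lost in 5 of the 7 other scalings, where the difference lay between 0.018 and 0.14, with the mean of its probes (0.18, adjusted p = 0.0569), and without positive replicate 1 (0.36, adjusted p = 0.0568) or negative replicate 1 (0.28, adjusted p = 0.0853).

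Tcf12, the third E protein, did not pass. Its brighter probe had 1.62 and 1.68 in positive LMPP against 1.74 and 1.66 in negative LMPP. These values overlap, and the 95% interval of the difference, -0.23 to 0.13, allows at most a small change in either direction under this scaling. Spike-in scaling called it lower (-0.36, limma adjusted p = 0.0181), as did 2 other scalings. The dimmer probe had -0.20 and -0.60 in positive LMPP against -0.21 and -0.23 in negative LMPP, so that only positive replicate 2 stood apart.

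Within the arrays, where additive scaling cancels, Tcf3 moved up relative to Tcf12 by 0.53, with 0.43 to 0.64 over the 4 pairs of a positive and a negative array. Tcf4 moved up relative to Tcf12 by 0.42, with 0.25 to 0.59. Each shift uses the brightest probe of a gene. The second Tcf4 probe, with a difference of -0.0060, lay close to the -0.048 of the brighter Tcf12 probe. Cyclic loess is not additive, and with it the brightest probes of Tcf3, Tcf4 and Tcf12 differed by 0.21, 0.018 and -0.23. The shifts show unequal change of the probes and give no direction for either gene alone. No p is given for them, because with 2 arrays in each group the smallest exact permutation p is 0.333.

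Among the Id proteins, Id1 rose the most of all 10 genes. Id1 is an inhibitor of E proteins that is switched on by bone morphogenetic protein (BMP) signals in many cells. Its probe had log2 signals of -1.56 and -1.57 in positive LMPP, against -3.54 and -3.44 in negative LMPP. The groups lay far apart, with a difference of 1.92 (SE 0.06, limma adjusted p = 0.00114) or 3.80-fold, which was larger than in 99.6% of the genes tested. In scanner units the spots were dim, with processed signals of 108 and 139.7 on the positive arrays and 37.7 and 50.2 on the negative arrays. Normexp background correction was run with an added offset of 50, which compresses dim signals. It lowered the difference to 1.18, and Id1 passed under all 17 alternatives run.

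Id2, the inhibitor that goes with conventional dendritic and innate lymphoid fates, did not pass. It had -0.85 and -0.85 in positive LMPP against -0.996 and -1.12 in negative LMPP. Both positive arrays were higher, but the difference of 0.21 (SE 0.07, limma adjusted p = 0.0605) lies close to the median of all genes, and its 95% interval runs from 0.02 to 0.40. Its sign turned with spike-in scaling (-0.10) and with the 75th percentile of probes above background on all arrays (-0.024). It passed in 5 other alternatives, so no direction can be given. The start region of Id2 is shown because Id2 is a known repression target of Zeb2. The region holds no CACCTG, the E-box that Zeb factors bind, and its 1 E-box reads CAGCTG (GRCm38.p6, chr12:25096043-25096342, minus strand, E-box in capitals, 5′ to 3′).
Id2: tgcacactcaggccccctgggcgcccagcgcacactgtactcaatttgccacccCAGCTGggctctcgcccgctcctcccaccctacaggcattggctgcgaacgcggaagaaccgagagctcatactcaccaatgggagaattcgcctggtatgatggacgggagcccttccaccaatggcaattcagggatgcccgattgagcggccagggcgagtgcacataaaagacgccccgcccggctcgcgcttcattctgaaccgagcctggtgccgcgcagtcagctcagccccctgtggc

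Id3, an inhibitor known from lymphocyte development, was measured by 1 dim probe. It gave -3.56 and -3.29 in positive LMPP against -4.20 and -3.72 in negative LMPP. The groups did not overlap, but the arrays of each group lay apart and the difference of 0.53 (SE 0.20) did not pass (limma adjusted p = 0.0861), with a 95% interval of -0.03 to 1.09. It passed with normexp background correction (0.39, adjusted p = 0.00297), with the replicate number as a block (0.53, adjusted p = 0.0202) and without negative replicate 2 (0.78, adjusted p = 0.0469). Within the arrays Id1 moved up relative to Id2 by 1.71 (1.60 to 1.83 over the 4 pairs) and relative to Id3 by 1.39 (1.06 to 1.72). Normexp is not additive, and with it Id1, Id2 and Id3 differed by 1.18, 0.20 and 0.39. The size of both shifts thus depended on how the background of dim probes was treated, and both were smaller with normexp.

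The Zeb factors went in opposite directions. Zeb2, which in mice is needed for plasmacytoid cells, monocytes and 1 branch of conventional dendritic cells, rose on both of its probes. The brighter probe had 2.46 and 2.45 in positive LMPP against 1.28 and 1.21 in negative LMPP, and the dimmer probe -2.41 and -2.50 against -3.43 and -3.51. The positive arrays were higher throughout, with differences of 1.21 (SE 0.06, limma adjusted p = 0.00145), or 2.32-fold, and of 1.01 (SE 0.07, adjusted p = 0.00249 among all probes). The rise of the brighter probe was larger than in 98.7% of the genes tested.

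Zeb1, the paralogue best known from T cell development and from loss of epithelial character, fell. It had 1.65 and 1.62 in positive LMPP against 2.11 and 2.10 in negative LMPP. The arrays of each group lay close together, and the difference was -0.47 (SE 0.05, limma adjusted p = 0.00430), or 1.39-fold lower. Zeb2 moved up relative to Zeb1 within the arrays by 1.68, with 1.65 to 1.72 over the 4 pairs. Both calls held under all 17 alternatives run, with 0.90 to 1.25 for the brighter Zeb2 probe and -0.78 to -0.46 for Zeb1. The dimmer Zeb2 probe had processed signals of 59.9 and 73.2 on the positive arrays and 40.7 and 47.8 on the negative arrays. Its difference was 0.60 with normexp, 0.70 with spike-in scaling and 1.10 in the authors' matrix values, and it passed in each.

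The most upstream start region of Zeb2 is shown because, unlike those of Tcf3, Id2 and Cbfa2t3, it has no E-box (GRCm38.p6, chr2:45117393-45117692, minus strand, 5′ to 3′).
Zeb2: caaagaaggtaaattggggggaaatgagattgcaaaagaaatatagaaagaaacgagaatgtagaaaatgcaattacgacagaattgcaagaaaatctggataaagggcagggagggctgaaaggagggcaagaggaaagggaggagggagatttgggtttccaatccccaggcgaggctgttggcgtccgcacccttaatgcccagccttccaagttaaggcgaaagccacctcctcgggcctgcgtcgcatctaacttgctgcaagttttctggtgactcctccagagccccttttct

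Cbfa2t3 fell and Bcl11a did not pass. The brightest Cbfa2t3 probe had 4.76 and 4.86 in positive LMPP against 5.26 and 5.32 in negative LMPP. Both positive arrays were lower, with a difference of -0.48 (SE 0.07, limma adjusted p = 0.00669), or 1.39-fold lower. It did not pass without negative replicate 2 (-0.45, adjusted p = 0.0515), and passed under the other 16 alternatives with differences down to -0.89.

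Of the dimmer Cbfa2t3 probes, the first had -1.81 and -1.43 in positive LMPP against -1.05 and -1.07 in negative LMPP and fell (-0.56, SE 0.15, limma adjusted p = 0.0358 among all probes), a call lost under 6 of 16 alternatives, among them without negative replicate 1 (adjusted p = 0.137) or 2 (adjusted p = 0.131). The other had -2.96 and -2.50 in positive LMPP against -2.46 and -2.55 in negative LMPP, which overlap. Positive replicate 1 was the lowest array on both.
The upstream start region of Cbfa2t3 is shown because it is the richest in E-boxes of the windows examined (GRCm38.p6, chr8:122699060-122699359, minus strand, E-boxes in capitals, 5′ to 3′).
Cbfa2t3: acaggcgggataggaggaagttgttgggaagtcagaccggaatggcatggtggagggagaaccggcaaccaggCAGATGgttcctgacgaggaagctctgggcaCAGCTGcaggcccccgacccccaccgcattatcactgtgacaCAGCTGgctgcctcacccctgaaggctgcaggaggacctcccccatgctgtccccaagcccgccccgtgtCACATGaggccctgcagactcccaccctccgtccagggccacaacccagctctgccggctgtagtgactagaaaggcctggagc

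The brighter Bcl11a probe had 4.34 and 4.43 in positive LMPP against 4.33 and 4.44 in negative LMPP, so the groups overlapped fully, and the 95% interval of the difference was -0.21 to 0.21. The second probe had 3.51 and 3.57 in positive LMPP against 3.71 and 3.87 in negative LMPP, lower in both positive arrays without passing (-0.25, SE 0.08, limma adjusted p = 0.0632). This second probe was called lower under 9 of 16 alternatives, 6 of them scalings (down to -0.60 with cyclic loess) and 3 with the scaling kept, namely an intensity trend (adjusted p = 0.00934), a robust trend (adjusted p = 0.00569) and the filter for signal on all 4 arrays (adjusted p = 0.0430). For the brighter probe, quantile normalization (-0.35), the authors' deposited matrix values (-0.35), spike-in scaling (-0.31) and cyclic loess (-0.37) each gave a lower call. Whether Bcl11a was called lower thus depended on the probe and the scaling and, for the second probe, on the variance model and the filter.

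**Figure D2:**
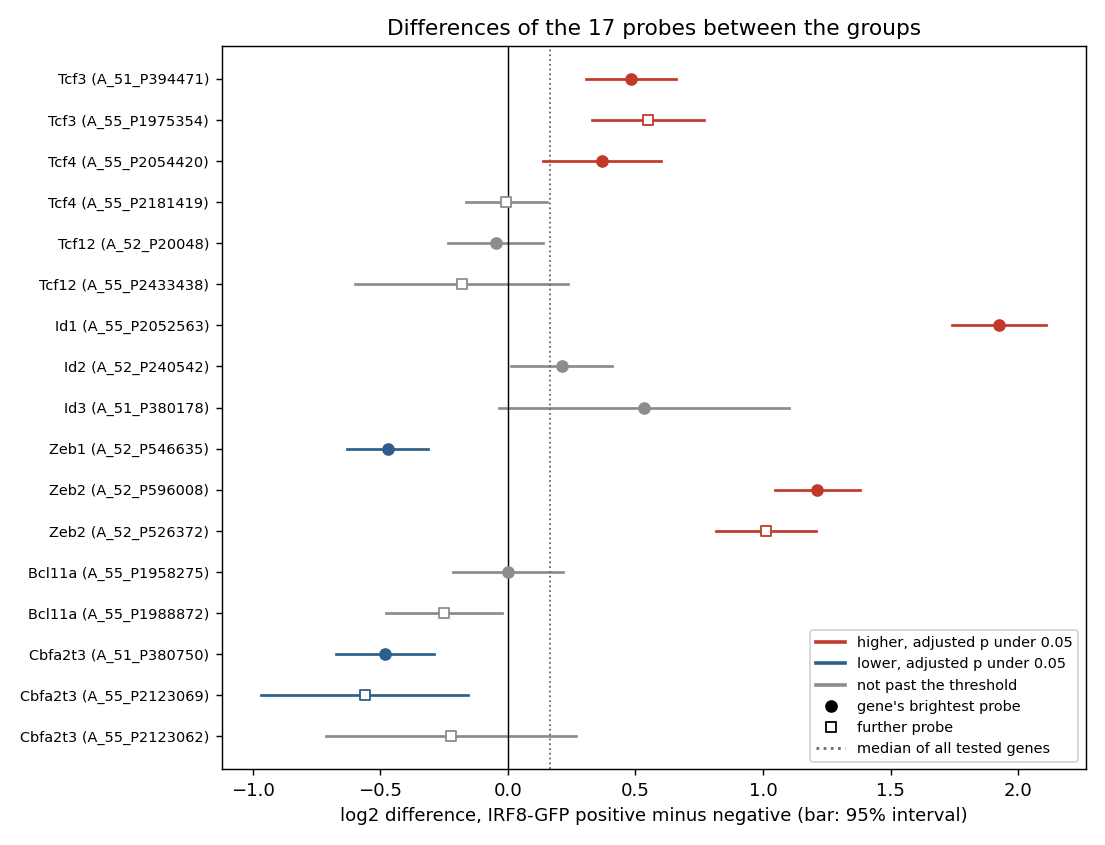
Log2 difference, IRF8-GFP positive minus negative, of each of the 17 probes with its 95% interval from limma fitted over all kept probes. Filled circles are the brightest probe of a gene, open squares further probes, and colours mark adjusted p under 0.05. Of the 17 probes 9 passed, 6 higher and 3 lower, and the dotted line is the median of all genes, 0.16.

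Among the probes, 9 of 17 passed, 6 higher and 3 lower, where 57% of all 30478 probes kept passed (35% higher and 22% lower). Probes of 1 gene are not independent of each other. Both probes passed in the same direction for Tcf3 and Zeb2, and 2 of 3 for Cbfa2t3.

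**Figure D3:**
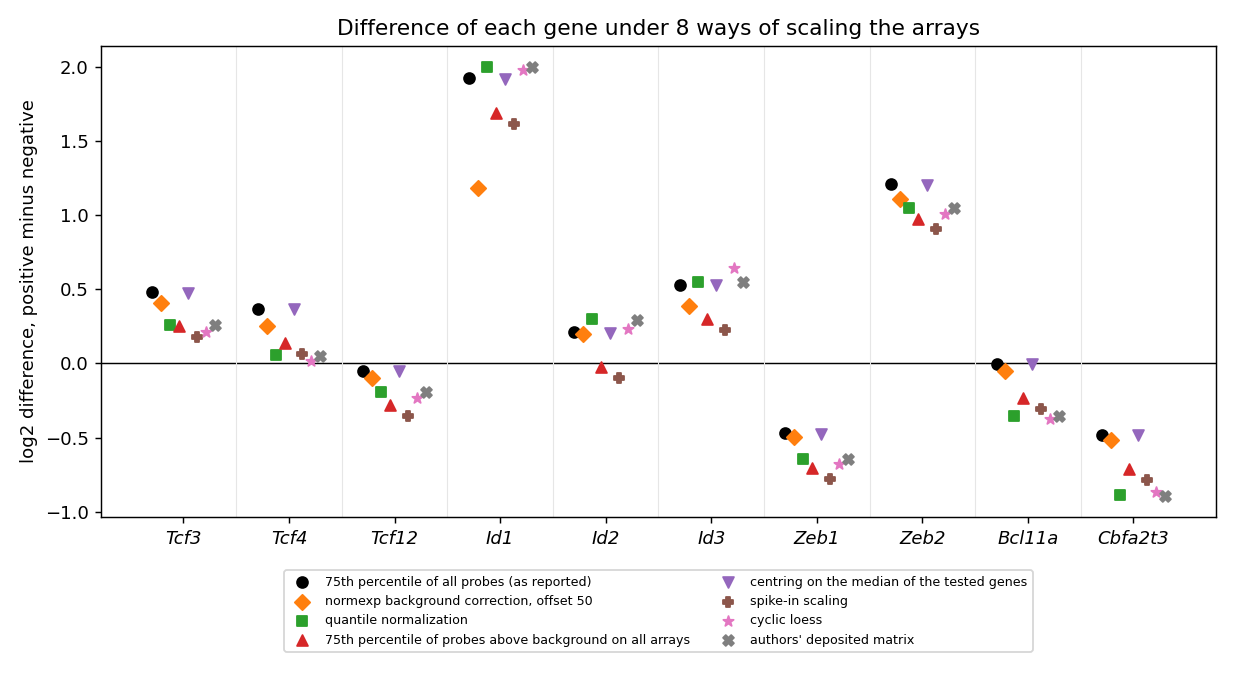
Log2 difference, IRF8-GFP positive minus negative, of each gene's brightest probe under 8 ways of scaling the arrays, black circles being the values reported. Tcf3, Tcf4, Id1, Id3 and Zeb2 stay above 0 and Tcf12, Zeb1, Bcl11a and Cbfa2t3 below 0 in all 8, while Id2 lies on either side.

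Because most genes were called, the scaling matters for small differences. The median difference of all genes was 0.16 as reported, 0.040 in the matrix values that the authors deposited, 0.041 with quantile normalization, 0.019 with cyclic loess, which removes a trend of the difference with brightness, and -0.14 with spike-in scaling (the mean of 7 control probes). The share of higher calls over all genes was 64.3% as reported, 73.7% with normexp, 49.1% with cyclic loess and 28.9% with spike-in scaling. Over the 8 scalings the members called were 4 higher and 2 lower as reported and with median centring, 6 and 2 with normexp, 4 and 3 with quantile normalization and in the matrix values, 3 and 3 with the percentile of probes above background on all arrays, 3 and 4 with cyclic loess, and 2 and 4 with spike-in scaling. Id1, Zeb1, Zeb2 and Cbfa2t3 were called in all 8. Tcf3 was not called with spike-in scaling (0.18, limma adjusted p = 0.133) or cyclic loess (0.21, adjusted p = 0.0604), though it stayed above 0.

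The start regions were searched for the E-box CANNTG, which reads the same on both strands, and for CACCTG on both strands, the E-box that Zeb factors bind, every match of which is also a CANNTG. RefSeq windows of 300 bases (250 before and 50 after a start, GRCm38.p6) were used for 7 of the 10 genes, 13 windows in all. An E-box was present in 8 of these 13 windows and in 72.3% of all 32851 windows of the table. Windows of 1 gene are not independent, and 2 of the 4 Zeb2 windows share most of their bases. Counted by gene, 5 of the 7 had an E-box in at least 1 window. The upstream Cbfa2t3 window held 4, where 6.49% of all windows held 4 or more, and 2 of the 4 read CAGCTG. The Tcf3 and Id2 windows printed held 1 each, and the 4 Zeb2 windows and the Id3 window held none. CACCTG was found in 1 of the 13 windows, the downstream one of Cbfa2t3, against 20.2% of all windows. These matches describe letters in short windows and do not show binding.

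**Figure D4:**
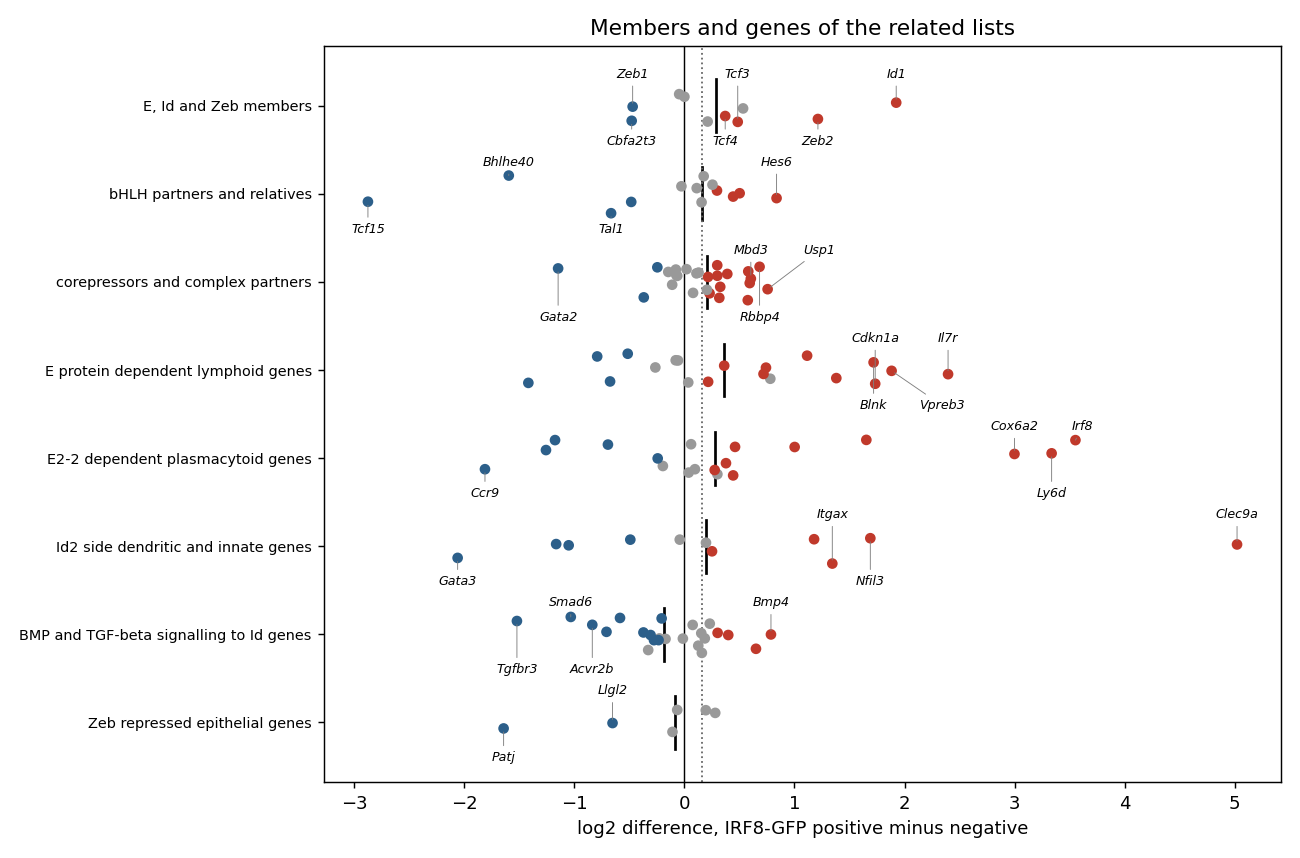
Log2 difference, IRF8-GFP positive minus negative, of the 10 members and of the tested genes of 7 related lists. Red and blue points passed an adjusted p of 0.05, grey points did not, black bars are list medians and the dotted line is the median of all genes. Labelled list genes are up to 4 per list with the widest differences, and for Clec9a, Vpreb3, Tcf15 and Bhlhe40 the point is a fitted value of a gene not above background in the dimmer group.

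Other helix-loop-helix genes were mixed. Of 24 listed partners and relatives 13 were tested, 4 rose, 4 fell and 5 did not pass (median 0.16), where 63.1% of all named genes tested passed, 44.1% higher and 19% lower. Tal1, a tissue-restricted partner of E proteins in stem and red cell development, had 2.97 and 2.99 in positive LMPP against 3.66 and 3.64 in negative LMPP and fell (-0.67, SE 0.05, limma adjusted p = 0.00234). Hes6, a hairy-related gene, rose 1.79-fold (0.84, SE 0.05, adjusted p = 0.00187). Tcf15, a mesoderm and blood stem cell factor, was at least 4.08-fold lower and Bhlhe40, a repressor, at least 1.93-fold lower. Neither was well above background on a positive array, so both entered the test only through the negative group and their calls are no support for the list. With genes above background on all 4 arrays the list had 4 higher and 2 lower of 11. With normexp the fitted difference of Tcf15 was -0.95, and Bhlhe40 did not pass (-0.24, adjusted p = 0.0897). The split was 6 higher and 3 lower with normexp, and 1 and 4 both with spike-in scaling and with the percentile of probes above background on all arrays.

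Of 28 corepressors and complex partners 26 were tested, 13 rose, 3 fell and 10 did not pass (median 0.21). Over all named genes tested, 44.1% were higher and 19% lower. Usp1, which encodes a deubiquitinase that stabilises Id proteins, rose 1.69-fold (0.76, SE 0.07, limma adjusted p = 0.00281). Rbbp4 and Mbd3, subunits of the NuRD chromatin complex, rose by 0.68 (SE 0.05, adjusted p = 0.00227) and 0.60 (SE 0.07, adjusted p = 0.00439). Gata2, a stem cell factor in complexes with Tal1, fell by 1.15 (SE 0.06, adjusted p = 0.00164). The split turned with the scaling, to 5 higher and 8 lower with quantile normalization and 5 and 9 with spike-in scaling, and Mbd3 lost its call with quantile normalization (0.15, adjusted p = 0.119), in the matrix values (0.15, adjusted p = 0.133), with spike-in scaling (0.30, adjusted p = 0.0539) and with cyclic loess (0.20, adjusted p = 0.065).

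Of 24 lymphoid genes known to depend on E proteins 19 were tested, 10 rose, 4 fell and 5 did not pass (median 0.36). These counts lie near the shares of all named genes tested, 44.1% higher and 19% lower. Il7r, the interleukin-7 receptor gene, rose 5.26-fold (2.40, SE 0.06, limma adjusted p = 0.000835), although the sort took cells without the receptor on the surface. The cell cycle inhibitor gene Cdkn1a rose 3.33-fold (1.73, SE 0.06, adjusted p = 0.00115) and the B cell adaptor gene Blnk 3.29-fold (1.72, SE 0.06, adjusted p = 0.0012). Vpreb3 was at least 2.57-fold higher, with no negative array above background, so it entered only through the positive group (fitted difference 0.80 with normexp). With genes above background on all 4 arrays the list had 9 higher and 3 lower of 15. With spike-in scaling the list split into 8 higher and 7 lower.

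Of 23 plasmacytoid genes linked to the Tcf4 product 19 were tested, 9 rose, 5 fell and 5 did not pass (median 0.27). Here too the counts lie near the 44.1% higher and 19% lower of all named genes tested. Irf8 itself is among the 9 and is no independent sign of the list. Ly6d, a surface protein of lymphoid and plasmacytoid progenitors, had 0.06 and 0.13 in positive LMPP against -3.43 and -3.05 in negative LMPP and rose (3.34, SE 0.15, limma adjusted p = 0.00141), by 2.18 with normexp. Cox6a2, a subunit of mitochondrial cytochrome c oxidase, rose by 2.999 (SE 0.06, adjusted p = 0.000802). Ccr9, a chemokine receptor of plasmacytoid precursors, had -1.08 and -1.08 in positive LMPP against 0.71 and 0.75 in negative LMPP and fell (-1.81, SE 0.06, adjusted p = 0.00105). The list median lay below 0 in 4 of the 7 other scalings (-0.033 with spike-in scaling).

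Of 18 dendritic and innate lymphoid genes on the Id2 side 11 were tested, 5 rose, 4 fell and 2 did not pass (median 0.20). For all named genes tested the shares were 44.1% higher and 19% lower. Clec9a, a receptor of conventional dendritic cells, was at least 8.04-fold higher under the reported scaling. No negative array was well above background, so it entered only through the positive group, and with normexp its fitted difference was 1.75, which is smaller than that bound. With genes above background on all 4 arrays the list had 4 higher and 4 lower of 10. Nfil3, a factor upstream of Id2 and Zeb2 in mouse dendritic development, rose 3.22-fold (1.69, SE 0.07, adjusted p = 0.0013), and the CD11c gene Itgax 2.54-fold (1.34, SE 0.06, adjusted p = 0.00143). Gata3, a T and innate lymphoid factor, had -1.83 and -1.85 in positive LMPP against 0.20 and 0.23 in negative LMPP and fell (-2.06, SE 0.05, adjusted p = 0.000859).

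Of 28 genes of the BMP and TGF-beta pathways 24 were tested, 4 rose, 10 fell and 10 did not pass. Over all named genes tested, 44.1% were higher and 19% lower. The list median of -0.19 stayed below 0 in all 8 scalings (-0.50 to -0.08). Tgfbr3, a co-receptor, fell by 1.52 (SE 0.06, limma adjusted p = 0.00126), and by 0.78 with normexp. Smad6, an inhibitor of the BMP branch and itself a BMP target, fell by 1.03 (SE 0.07, adjusted p = 0.00192), and the activin receptor gene Acvr2b fell by 0.84 (SE 0.06, adjusted p = 0.00204). Bmp4 rose by 0.79 (SE 0.15, adjusted p = 0.0142), with 1 of 2 positive arrays above background, and did not pass without negative replicate 1 (0.76, adjusted p = 0.0744) or negative replicate 2 (0.81, adjusted p = 0.0692). Id1, a target gene of BMP signals, rose while Smad6 fell, and whether BMP signals had a part in either was not tested.

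Of 14 epithelial genes known to be repressed by Zeb factors 6 were tested, none rose, 2 fell and 4 did not pass. Patj, a polarity scaffold gene, fell by 1.64 (SE 0.05, limma adjusted p = 0.00114) and Llgl2, another polarity gene, by 0.65 (SE 0.07, adjusted p = 0.00326). The E-cadherin gene Cdh1 was on the arrays but was not tested. The medians of the 7 lists were the same when genes without signal in the dimmer group were set at their bounds. Leaving out 1 array lowered several counts. The corepressors had 6 higher without negative replicate 1 and 7 without negative replicate 2, and the BMP and TGF-beta genes had 5 lower without negative replicate 1, 4 without negative replicate 2 and 5 without positive replicate 1. The helix-loop-helix list had 2 higher, and the lymphoid list 2 lower, without negative replicate 1 and likewise without negative replicate 2.

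The genes whose 4 mean-centred values lay nearest to those of Id1, among 13340 other named genes, were Mrgpra2b, Cst7 and Cd28 (Euclidean distances 0.043, 0.060 and 0.074 in log2 units). Those nearest to Zeb2 were Kif20a, Ttyh2 and Batf3, a factor of conventional dendritic cells (0.038, 0.042 and 0.047). Batf3 had -3.41 and -3.40 in positive LMPP against -4.57 and -4.60 in negative LMPP. With 4 arrays this likeness is little more than a like difference between the groups.

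Several marker lists of other cells differed between the groups. Counts of markers called have to be read against all named genes tested, of which 63.1% passed, 44.1% higher and 19% lower. A count near these shares, as in the T and NK cell and LMPP gate lists, says nothing about a cell type. Summed over a list, as linear signals relative to the 75th percentile, the 7 monocyte markers on the arrays reached 90.0 and 89.9 in positive LMPP against 34.2 and 29.9 in negative LMPP, with 5 of 6 tested higher and 1 lower. The 8 blood stem cell markers summed to 28.2 and 29.5 in positive LMPP against 80.1 and 83.2 in negative LMPP, and 3 of the 8, Mecom, Fgd5 and Hoxb5, were above background on the negative arrays alone. The 5 above background on all 4 arrays were all called lower. The 8 conventional dendritic markers summed to 4.50 and 4.74 in positive LMPP against 2.52 and 2.61 in negative LMPP, with 3 of the 4 above background on all arrays called higher and Xcr1, Cd209a and Irf4 not above background on any. The 7 plasmacytoid markers gave overlapping sums, 160.3 and 136.9 in positive LMPP against 180.1 and 133.4 in negative LMPP, with Klk1 and Spib not above background. Siglech made up 66.7% to 79.1% of these sums, and of the 5 markers tested 1 was called higher and 2 lower. The 8 neutrophil markers summed to 618.3 and 545.4 in positive LMPP against 200.1 and 204.7 in negative LMPP, with Ltf, Ngp and Mmp8 not above background. Mpo made up 98.7% to 99.1% of these sums, and of the 4 markers above background on all arrays 2 were called higher and 1, S100a9, lower (-2.13 and -2.04 in positive LMPP against -1.03 and -0.93 in negative LMPP). The 8 erythroid and megakaryocyte markers summed to 3.21 and 3.36 in positive LMPP against 8.29 and 8.53 in negative LMPP, with all 6 markers above background on all 4 arrays called lower. Ms4a1 and Ebf1 among the 6 B cell markers, and Cd3g and Ncr1 among the 7 T and NK cell markers, stayed at background on all 4 arrays. The T and NK cell list summed to 56.2 and 55.6 in positive LMPP against 52.1 and 53.4 in negative LMPP. Nkg7 made up 61.5% to 67.6% of these sums. Of the 4 T and NK cell markers above background on all 4 arrays, 2 were called higher and 1 lower. The B cell list summed to 14.0 and 13.5 in positive LMPP against 10.99 and 10.4 in negative LMPP, nearly all of it Cd79b. Of the LMPP gate genes 6 of 7 were above background on all 4 arrays, Slamf1 (CD150) on none. Il7r was 1 of the 6, although the sort took cells without that receptor on the surface. Of the 6, 3 were called higher and 2 lower. Ly6a (Sca-1) had 2.485 and 2.59 in positive LMPP against 3.45 and 3.55 in negative LMPP. Kit (CD117) had 4.27 and 4.23 against 4.62 and 4.66. Bulk arrays cannot tell more cells with a transcript from more transcript per cell, and the part of these mixtures in the differences of Id1, Zeb2 and the other members was not tested.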

How the data were processed

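RNA of 2 IRF8-GFP positive and 2 IRF8-GFP negative LMPP samples was Cy3-labelled with a kit for small inputs, per the labels' protocols, and hybridized to 4 arrays of 1 slide. Per the file headers, the deposited files come from Feature Extraction 10.7.3.1 (Agilent), on a design of build mm9, and hold processed intensities that are background-subtracted and not normalized between arrays. The authors' deposited matrix holds linear intensity values that were quantile normalized, judging from the values, since all columns hold the same sorted values. How it was centred is not stated in them.

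Control and outlier spots were left out, no spot was saturated, spots of a probe were averaged, and log2 values were taken relative to the array's 75th percentile of 55669 probes. A probe was kept when at least 0.5 of its spots were well above background on both arrays of 1 or both groups (30478 probes), and a gene was its brightest kept probe. Accessions were matched without version to RefSeq (GRCm38.p6), naming 26756 probes. limma 3.58.1 in R 4.3.3 fitted the groups over all genes, two-sided, with no block, and the code was tested on simulated data. The number of arrays limits precision. Folds given as "at least" compare the brighter group with the lowest signal well above background. Alternatives were the scalings, filters, variance models, probe rules, thresholds, a replicate block and each array left out. Normexp was run on median spot and background signals with an offset of 50 added. All 10 members are named, with Irf8 and up to 4 genes per list past the threshold with the largest difference. The members and lists were chosen with earlier results of these data known. Genes given as nearest were taken by a distance rule.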

Additional observations from a re-analysis of the deposited data

How the results depend on the processing

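Over all genes, 13390 calls became 18936 without a filter on dim probes, 7861 at an adjusted p of 0.01 and 7612 to 12774 when 1 array was left out (7612 without negative replicate 1, 7723 without negative replicate 2). The members called numbered 5 to 8 over all settings and 5 to 6 with 1 array left out. The member probes called, 9 as reported, numbered 5 to 9 with 1 array left out, 5 being the value without negative replicate 1, and 8 to 11 otherwise apart from 7 at an adjusted p of 0.01 and 12 at 0.1. The sign turned for Id2 (-0.024 with the 75th percentile of probes above background on all arrays, -0.10 with spike-in scaling). It also turned for the second Tcf4 probe (0.046 with normexp, 0.11 with quantile normalization and in the matrix values, 0.024 with cyclic loess) and the dimmest Cbfa2t3 probe (0.11 with normexp). With 1 array left out, the brighter Bcl11a probe ranged over -0.059 to 0.058, the second Tcf4 probe over -0.018 to 0.0065, the second Tcf12 probe over -0.38 to 0.016 and the dimmest Cbfa2t3 probe over -0.46 to 0.0088. None of these probes passed as reported, and the cause was not tested. With the replicate number as a block 13946 genes and 7 members passed, Id3 being added. Deviations of arrays with the same number correlated at 0.10 over genes, and with 2 pairs the numbers are not taken to pair the samples. With 2 arrays a group, and dim spots such as those of Id3, small differences could not be settled. Alternatives for the list genes were chosen after seeing the data.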
